A study of Mus musculus with 6 samples.

Results

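The microRNAs mmu-miR-23a, mmu-miR-23b, mmu-miR-24, mmu-miR-27a and mmu-miR-27b come from a pair of paralogous hairpin clusters, and their levels were read by RT-PCR in the lungs of newborn mice. Their assays were found by name, for the guide strands of mouse, rat or human miR-23a, miR-23b, miR-24, miR-27a and miR-27b, with assays marked # as the minor strand left out. This gave 5 wells of the 768 in the deposited table, all on the first of 2 cards and all named for the mouse. The hyperoxia group held 3 samples of the right lung of mice kept in 95% oxygen for 168 h, begun before 12 h of age and ended on day 7. The room air group held 3 right lung samples of the same age without added oxygen. No strain or sex is named in the labels, dams were moved between both atmospheres each day, and all lungs were flushed with saline through the pulmonary artery. The labels call the replicates separate samples without naming animals or litters, so each p-value reflects only how these samples vary, some of which may be technical.

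A miRNA guides the silencing complex to messages that pair with its seed, the bases at positions 2 to 8, and lowers their translation or stability. The 3 hairpins of a cluster are made from a shared primary transcript, so that miR-23, miR-27 and miR-24 can be produced together, after which each mature strand has its own rate of processing and decay. The clusters are active in endothelial cells and many other cell types. In endothelium miR-23 and miR-27 promote vessel sprouting by repressing Sprouty2 and Sema6a, which restrain it. miR-27 also represses Pparg, the receptor that drives fat cell and lipofibroblast differentiation, and miR-24 represses the pro-apoptotic Bcl2l11.

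The sequences are shown because they decide which assays can be told apart. They are from RefSeq on the mouse build GRCm38.p6, where all 6 hairpins and 4 of the 5 assayed mature strands were matched (miR-23b-3p was the other). Capitals mark the seed.
mmu-miR-23a-3p: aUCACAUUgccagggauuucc
mmu-miR-27a-3p: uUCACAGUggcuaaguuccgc
mmu-miR-27b-3p: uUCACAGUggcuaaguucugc
mmu-miR-24-3p: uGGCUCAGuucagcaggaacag

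The seed of miR-27a was shared by miR-27b alone among the tabulated mouse miRNAs. The mature strands of miR-27a and miR-27b were identical at 20 of 21 bases and differed by C19U, counted from the 5′ end of miR-27a. How far each assay also reads the other strand was not tested. The seed of miR-23a was not compared with that of miR-23b-3p. The seed of miR-24 was carried by 4 others (miR-5124b, miR-6369, miR-6410 and miR-6413), none of which had an assay that was tested.

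The first cluster, Mir23a, Mir27a and Mir24-2, spans 404 bases on the plus strand at chr8:84208518-84208921. No annotated protein-coding gene overlaps it, and the next one downstream, Zswim4, begins after 2020 bases. The second cluster, Mir23b, Mir27b and Mir24-1, spans 792 bases on the plus strand at chr13:63300484-63301275, inside the aminopeptidase gene Aopep (chr13:62964893-63326096). The miR-24 hairpins of the clusters differ around the same mature strand, which is in capitals here.
Mir24-2 hairpin: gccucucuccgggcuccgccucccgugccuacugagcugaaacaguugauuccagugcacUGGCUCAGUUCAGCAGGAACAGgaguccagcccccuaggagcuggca
Mir24-1 hairpin: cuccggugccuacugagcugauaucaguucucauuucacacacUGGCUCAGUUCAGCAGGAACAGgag

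The miR-24 assay therefore reads the sum of both loci, whereas miR-23a and miR-27a belong to the chromosome 8 cluster and miR-23b and miR-27b to the chromosome 13 cluster.

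Readings are threshold cycles (Ct), the number of PCR cycles needed to reach a set fluorescence. RNA that is more plentiful has a lower Ct, and with perfect doubling a difference of 1 cycle is a fold of 2. The log2 relative abundance is the mean Ct of the 282 first-card miRNAs detected in all 6 samples minus the Ct of the assay. Samples had 307 to 319 miRNAs with a Ct under 35 on the first card and 268 to 293 on the second. The first-card mean Ct was 0.76 cycles later in hyperoxia than in room air (exact permutation p = 0.1, the smallest that 3 against 3 samples allow, two-sided). On the second card, room air replicate 1 and hyperoxia replicate 2 had the identical Ct for 308 of 309 amplified assays, so these second-card values were left out; on the first card they shared 0 of 312. Lung markers were present: the endothelial miR-126-3p averaged a Ct of 13.2 in hyperoxia and 11.8 in room air, and the epithelial miR-200c 17.4 in hyperoxia and 16.5 in room air.

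None of the 5 miRNAs passed the test between hyperoxia and room air. In hyperoxia miR-23a, miR-27a, miR-24 and miR-23b had positive values and miR-27b a negative one, with log2 fold changes from -0.35 to 1.08 and limma adjusted p from 0.748 to 0.877. Over the same table of 551 assays, 0 passed an adjusted p of 0.05 (0%), and 9.07% had an unadjusted p under 0.05, against 0 of the 5. The median log2 fold change of the 5 was 0.25, beside -0.12 over all assays tested, which had 232 positive and 319 negative values.

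**Figure D1:**
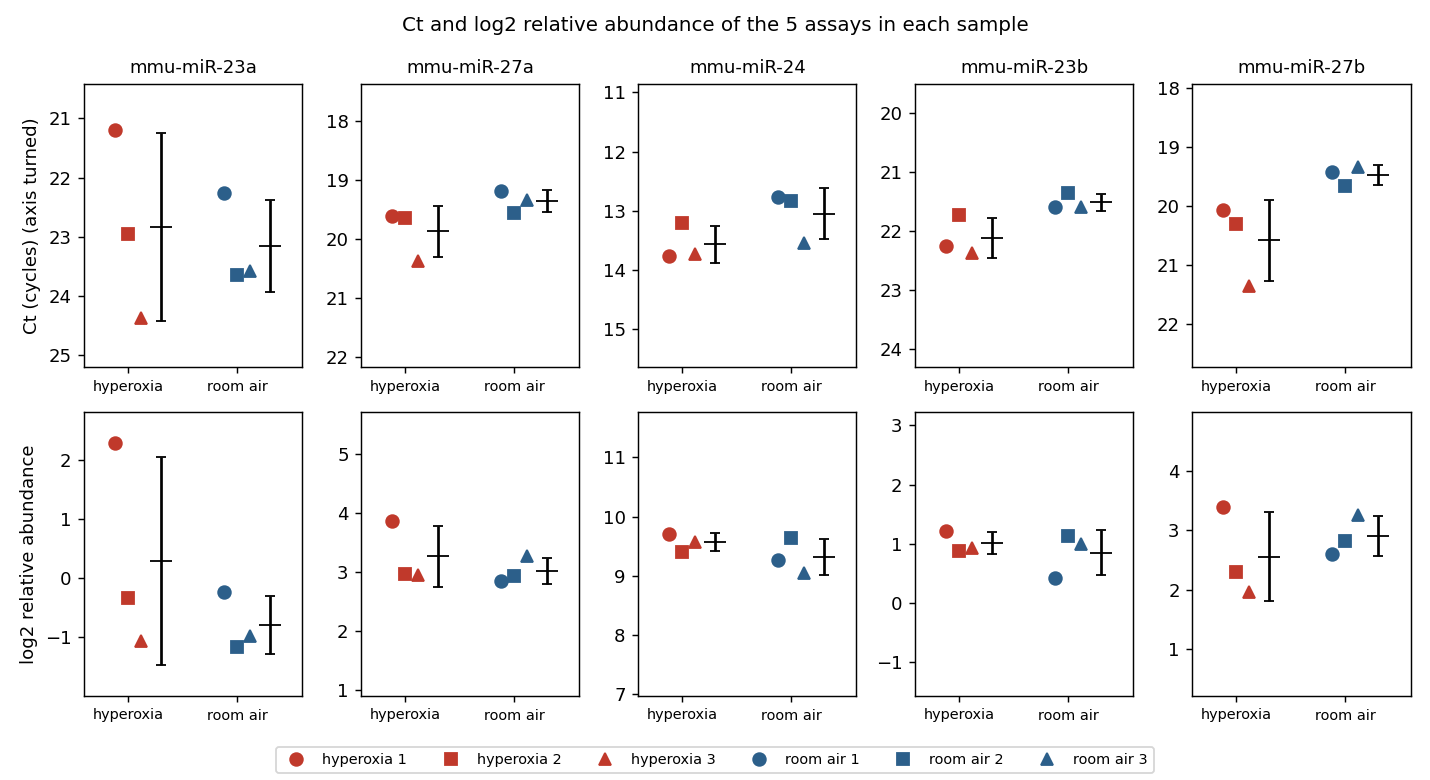
Ct (upper row, cycles, axis turned so that more RNA is up) and log2 relative abundance (lower row) of the 5 assays in each sample, hyperoxia left of room air. Points are samples, bars the mean and SD of 3. Hyperoxia replicate 1 is the highest point of the lower row in all 5 panels, which was not counted for the other assays.

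Among the miRNAs of the chromosome 8 cluster, mmu-miR-23a represses glutaminase and Sprouty2 in cultured cells. Its Ct was 21.19, 22.96 and 24.37 in hyperoxia, against 22.27, 23.64 and 23.58 in room air. Hyperoxia held both the earliest and the latest reading, and the groups overlapped. The log2 fold change was 1.08 ± 0.91 (SE, n = 3 each; 2.12-fold with a 95% interval from 0.44 to 10.2, limma adjusted p = 0.748). Single samples moved this value: it was 0.08 without hyperoxia replicate 1 and 1.73 without hyperoxia replicate 3. The pooled SD within groups, 1.29 on the log2 scale, was larger than that of 89.4% of the 282 first-card assays, and the median over these was 0.42. The miR-23a well was also the one member in plate row P rather than row B.

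mmu-miR-27a, the other guide strand read from the chromosome 8 cluster alone, varied less. Its Ct was 19.60, 19.64 and 20.36 in hyperoxia, against 19.19, 19.55 and 19.33 in room air. All hyperoxia readings were later than all room air readings as deposited, by 0.51 cycles on average, which is less than the 0.76 cycles of the card mean. Relative to that mean the samples were at 3.87, 2.97 and 2.95 on the log2 scale in hyperoxia, against 2.84, 2.93 and 3.27 in room air. Only hyperoxia replicate 1 lay above the room air range. The log2 fold change was 0.25 ± 0.34 (SE, n = 3 each; 1.19-fold with a 95% interval from 0.66 to 2.15, limma adjusted p = 0.853), and -0.06 without hyperoxia replicate 1.

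mmu-miR-24, made from both clusters, had the second lowest mean Ct of the 282 first-card assays. Its Ct was 13.76, 13.21 and 13.73 in hyperoxia, against 12.77, 12.84 and 13.55 in room air. Hyperoxia replicate 2 was earlier than room air replicate 3, so the groups overlapped. The log2 abundance was 9.56 ± 0.15 in hyperoxia and 9.32 ± 0.30 in room air (SD, n = 3 each). The log2 fold change was 0.25 ± 0.26 (SE; 1.19-fold with a 95% interval from 0.75 to 1.86, limma adjusted p = 0.787), from 0.10 to 0.41 with 1 sample left out. Its pooled SD of 0.24 was the smallest among the 5, with 18.1% of the first-card assays below it.

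From the chromosome 13 cluster, mmu-miR-23b shares targets with miR-23a. Its Ct was 22.25, 21.74 and 22.38 in hyperoxia, against 21.61, 21.36 and 21.60 in room air. Again all hyperoxia readings were later as deposited, by 0.60 cycles, and on the log2 scale the groups overlapped at 1.01 ± 0.19 in hyperoxia and 0.85 ± 0.37 in room air (SD, n = 3 each). The log2 fold change was 0.16 ± 0.29 (SE; 1.12-fold with a 95% interval from 0.68 to 1.84, limma adjusted p = 0.877). It was -0.06 without room air replicate 1, the lowest of the room air samples.

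mmu-miR-27b was the 1 member with a negative value. Its Ct was 20.07, 20.31 and 21.35 in hyperoxia, against 19.42, 19.66 and 19.33 in room air, 1.11 cycles later on average. On the log2 scale the samples were at 3.40, 2.30 and 1.96 in hyperoxia, against 2.61, 2.82 and 3.27 in room air. Hyperoxia replicates 2 and 3 lay below the whole room air range and hyperoxia replicate 1 above it. The log2 fold change was -0.35 ± 0.45 (SE, n = 3 each; 0.79-fold with a 95% interval from 0.36 to 1.71, limma adjusted p = 0.829). It was -0.78 without hyperoxia replicate 1 and -0.08 without hyperoxia replicate 3, and neither passed.

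**Figure D2:**
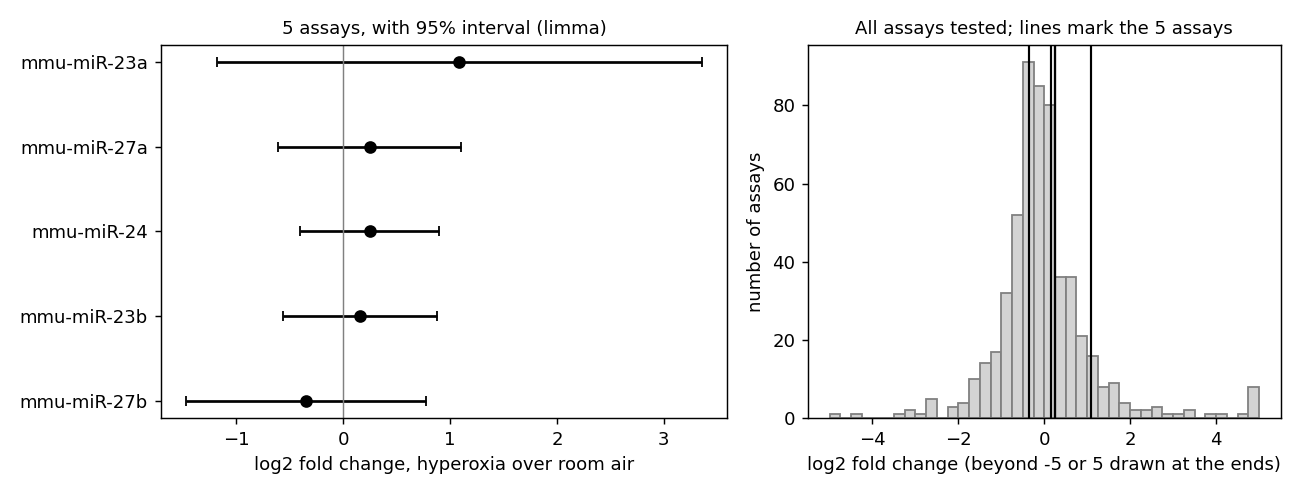
Left, log2 fold change of hyperoxia over room air for the 5 assays (points) with limma's 95% interval (bars); each interval includes 0. Right, the distribution of the log2 fold change over the 551 assays tested, with vertical lines at the 5 values, which run from -0.35 to 1.08.

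As deposited, 3 of the 5 assays (miR-23b, miR-27a and miR-27b) were later in all hyperoxia samples than in all room air samples, with an exact permutation p of 0.1 each. The background for this was 46.5% of the 282 first-card assays. On the log2 scale 0 of the 5 had groups that did not overlap, where 22.5% of the 302 first-card assays tested did (6.29% higher and 16.2% lower in hyperoxia). Hyperoxia replicate 1 had the highest log2 abundance of the 6 samples for every one of the 5, and it also had the latest card mean, a Ct of 23.47. The log2 abundance is the card mean minus the Ct, so it gives an assay only relative to the other first-card assays of the same sample. How many other first-card assays were also highest in hyperoxia replicate 1 was not counted. The median of the 5 log2 fold changes was 0.04 without that sample and 0.16 to 0.34 without any other. In whole lung RNA, fewer cells that make a miRNA and less of it per cell cannot be told apart.

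The sign of 3 of the 5 depended on the reference, and for miR-27a and miR-23b also on single samples. Relative to the 5 small RNA controls together, miR-27a was at -0.32, miR-24 at -0.32 and miR-23b at -0.41, while the median of all assays tested was at -0.62. miR-23a stayed positive and miR-27b negative under every reference and Ct ceiling tried, from 0.32 to 1.19 for miR-23a and from -1.11 to -0.24 for miR-27b. Of the members, 4 lie in plate row B, where the U6 control wells were later in hyperoxia by 1.06 cycles, beside 0.43 in row A. The rows hold the same U6 value in room air replicates 1 and 3 (9.36 and 10.26), so these readings are not independent between the rows. The 17 other miRNAs tested in row B had a median log2 fold change of 0.13 and a mean of 0.27, and miR-27a, miR-24 and miR-23b lay between that median and that mean. With the mean of the row's other miRNAs as reference, chosen after those wells were seen, miR-27a and miR-24 were at -0.03 each, miR-23b at -0.12 and miR-27b at -0.62. With each sample's median of those assays as reference they were at -0.27 (miR-27a and miR-24), -0.36 and -0.86. The part of the plate position in the results was not tested further. In the authors' deposited table, which refers to the row A U6 wells, the fold of hyperoxia over room air was 1.69 for miR-23a, 0.95 for miR-27a, 0.95 for miR-24, 0.89 for miR-23b and 0.63 for miR-27b. With the mean of the U6 wells of both rows as reference, miR-27a, miR-24 and miR-23b were instead positive, at log2 fold changes of 0.23, 0.23 and 0.14.

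**Figure D3:**
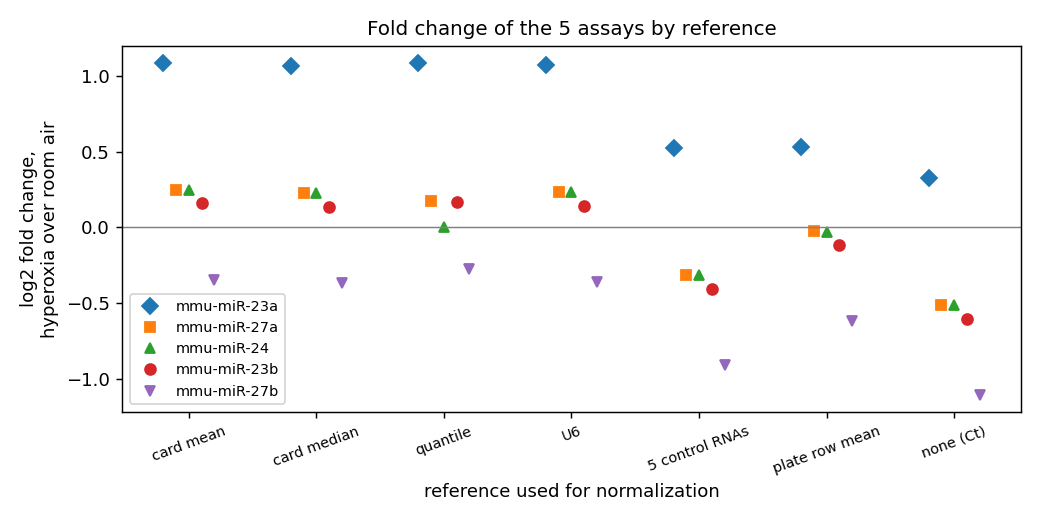
Log2 fold change of hyperoxia over room air (vertical axis) for the 5 assays under 7 references (horizontal axis). miR-23a is highest and miR-27b lowest throughout, while miR-27a, miR-24 and miR-23b lie above or below 0 depending on the reference. The card mean, card median, U6, control RNAs and no normalization shift all 5 assays alike. Only quantile normalization and the plate row reference could change the order of the assays.

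A Ct difference between assays of the same sample and card needs no reference. Reading it as a ratio of the miRNAs assumes perfect doubling in both assays and no reading of the other strand, neither of which was tested. All 10 pairs were compared by exact permutation tests over the 6 samples. The near-identical miR-27a and miR-27b formed the 1 pair whose groups did not overlap, 1 of 10, where 18.3% of all 39621 pairs of first-card assays did not. The Ct of miR-27b minus that of miR-27a was 0.47, 0.67 and 0.99 cycles in hyperoxia, against 0.23, 0.11 and -0.004 in room air. It averaged 0.71 ± 0.26 cycles in hyperoxia and 0.11 ± 0.12 in room air (SD, n = 3 each). The difference between the groups was 0.60 ± 0.17 cycles (SE), a 1.51-fold lower ratio of miR-27b to miR-27a in hyperoxia, and lay between 0.45 and 0.72 with any 1 sample left out. The exact permutation p was 0.1, or 0.667 after Benjamini-Hochberg adjustment over the 10 pairs, and 53.7% of all pairs had a change at least as large.

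Among miR-24, miR-27a and miR-23b the differences between the groups were small beside their errors. The Ct of miR-24 minus that of miR-23b was -8.49, -8.53 and -8.65 cycles in hyperoxia, against -8.84, -8.52 and -8.05 in room air. The groups overlapped, and the 3 hyperoxia values lay closer together than the room air values. The change was -0.09 ± 0.23 cycles (SE) for this pair, -0.09 ± 0.27 for miR-27a minus miR-23b and -0.003 ± 0.36 for miR-27a minus miR-24, with exact permutation p of 0.8, 0.8 and 1. For miR-27b minus miR-23b, its neighbour in the chromosome 13 cluster, the change was 0.50 ± 0.38 cycles (SE, exact permutation p = 0.2), and for miR-27b minus miR-24 it was 0.59 ± 0.50 (p = 0.4 in the same exact test). Pairs with miR-23a had changes from -1.43 to -0.84 cycles with exact permutation p from 0.2 to 0.6.

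**Figure D4:**
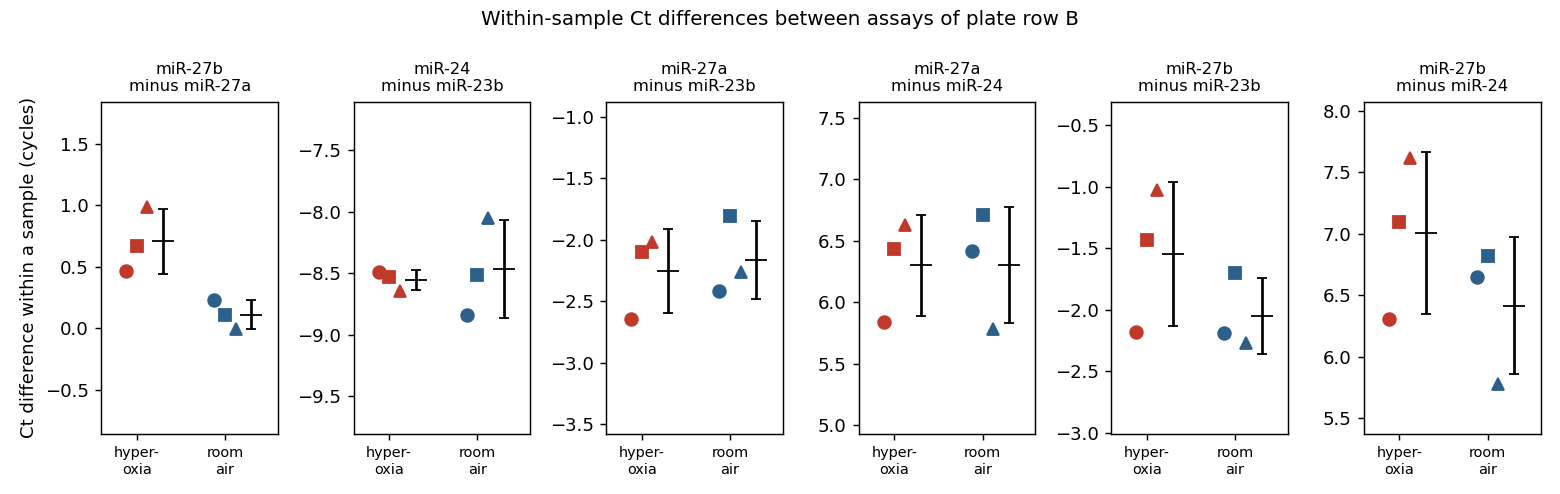
Ct difference within each sample (cycles) for the 6 pairs of assays in plate row B, hyperoxia left of room air. Points are samples (circle, square and triangle for replicates 1, 2 and 3) and bars the mean and SD; the groups are apart for miR-27b minus miR-27a and overlap in the other 5 panels.

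Taken by locus, the mean Ct of miR-23b and miR-27b minus that of miR-23a and miR-27a was 0.76, -0.27 and -0.50 cycles in hyperoxia, against -0.22, -1.09 and -0.99 in room air. Hyperoxia replicate 1 stood highest, and the others overlapped. The change, 0.76 cycles later for the chromosome 13 members relative to those of chromosome 8, had an exact permutation p of 0.3 and was 0.38 without that sample.

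The minor strands were read on the second card, where 2 samples remain in each group. These are hyperoxia replicates 1 and 3 and room air replicates 2 and 3. Names and assay numbers disagree for that card, so the identity of single assays there is uncertain. The 5 minor-strand assays of these hairpins had limma adjusted p from 0.689 to 0.914. From the chromosome 8 cluster, miR-27a# was at 1.08 ± 0.61, miR-23a# at 0.86 ± 0.57 and miR-24-2# at 0.71 ± 0.39 (log2 fold change ± SE). Hyperoxia replicate 1 stood above hyperoxia replicate 3 for these, at 2.10 and 1.37, -3.55 and -4.83, and 6.10 and 5.64 on the log2 scale. From the chromosome 13 cluster, miR-27b# was at 0.28 ± 0.61 and miR-24-1# at -1.34 ± 1.46. The Ct of miR-24-1# was 26.39 and 30.08 in hyperoxia, against 27.38 and 26.03 in room air. Hyperoxia replicate 1 stood above hyperoxia replicate 3 here too, at 2.19 and 0.83 for miR-27b# and -1.18 and -4.83 for miR-24-1#. RefSeq gives miR-189 as an older name for the Mir24-1 locus, and the assay hsa-miR-189 of the same card, looked at after its value was known, was at -0.04 ± 0.37 (limma adjusted p = 0.973). The minor strands of the miR-24 hairpins share their first 16 bases, and how far their assays separate the loci was not tested.

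Likeness to other miRNAs was measured as the root mean square difference of the log2 abundances over the 6 samples, each assay centred on its own mean, among 277 first-card assays detected in all samples. miR-9 was the closest to both miR-23b (0.14) and miR-27a (0.15), and miR-532-5p to miR-24 (0.11). miR-26b, which lies near miR-27b in plate row B, was the closest to it (0.18), followed by miR-381 and miR-379 (0.24 and 0.25). The next closest were rno-miR-381 and miR-582-5p for miR-23b, miR-31 and miR-500 for miR-24, and miR-28 and miR-674 for miR-27a. For miR-23a, which varied most, miR-7b, miR-196b and miR-214 were the closest, at 0.59, 0.72 and 0.76. As a share of the assay's own root mean square about its mean, the closest match was at 0.49 for miR-23a, 0.49 for miR-24, 0.56 for miR-23b, 0.43 for miR-27a and 0.35 for miR-27b. Members were not each other's closest assays. miR-23b and miR-24 differed by 0.24, with 17 other assays nearer to miR-23b and 10 nearer to miR-24. miR-27a and miR-27b differed by 0.34, with 37 nearer to miR-27a and 10 nearer to miR-27b. Within the chromosome 8 cluster, miR-27a and miR-23a differed by 0.91, with 214 nearer to miR-27a and 6 nearer to miR-23a. Within the chromosome 13 cluster, miR-23b and miR-27b differed by 0.46, with 114 nearer to miR-23b and 56 nearer to miR-27b.

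Of 11 other miRNAs known from blood vessel growth, 0 passed over all assays, 5 were positive and 6 negative, with a median log2 fold change of -0.09. At an unadjusted p under 0.05, miR-221, which restrains endothelial migration, was at 1.30 ± 0.31 and miR-132, which promotes endothelial proliferation, at 1.68 ± 0.56 (log2 fold change ± SE, limma adjusted p of 0.333 and 0.456), where 3.63% of all assays had such a p on the higher side. miR-222, the partner of miR-221, was at 0.72 ± 0.32. The endothelial markers miR-126-3p and miR-126-5p were at -0.61 ± 0.37 and -0.14 ± 0.25, with a mean level from 9.10 to 9.29 in hyperoxia and from 9.12 to 10.2 in room air (log2 of the mean relative abundance). Their part in the values of the 5 members was not tested. Among the other marker lists, 0 assays passed. The median log2 fold change was -0.07 for the epithelial assays (4 of 10 positive), -0.03 for smooth muscle and mesenchyme (3 of 6), 0.74 for leukocytes (4 of 6), 0.24 for erythroid cells (2 of 3) and -0.39 for striated muscle (1 of 6). In each of the last 4 lists 1 assay had an unadjusted p under 0.05, on the lower side (5.44% of all assays). These were miR-145, miR-150, hsa-miR-144 and miR-208b, at -0.68 ± 0.23, -1.09 ± 0.27, -1.29 ± 0.32 and -1.06 ± 0.25 (log2 fold change ± SE). Every assay named hsa in the marker and blood vessel lists was read on the second card. There 2 samples remain in each group, and the identity of single assays is uncertain. Among them are hsa-miR-144, hsa-miR-378 and hsa-miR-206, the 1 positive striated muscle assay, and the counts and medians include them. The first-card erythroid assays miR-451 and miR-486 were positive, at 0.71 and 0.24. The liver miRNA miR-122 was at -0.69 ± 1.33.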

How the data were processed

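Mature miRNAs were measured by RT-PCR after reverse transcription with pooled primers and 12 pre-amplification cycles, per the labels' protocols. The authors deposited 1 table of Ct values per well and sample, with group means and a fold (a ratio of hyperoxia over room air), per the file headers. Instrument, software and Ct threshold are not given in the sources used here. The deposited difference between groups was recomputed within 0.01 cycles for 764 of 764 assays.

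From the Ct values, a Ct of 35 or more was left missing, each sample was centred on its card mean (282 and 249 assays), and assays with at least 2 values per group were tested with limma 3.58.1 in R 4.3.3 (lmFit and eBayes, Benjamini-Hochberg over 551 assays, threshold 0.05). Scripts were tested on simulated data. Single values were compared by exact permutation. The members, lists and rules for named miRNAs (all members, their minor strands, 3 most alike assays each, marker lists by count, and those with an unadjusted p under 0.05) were chosen with earlier results of these data known. Alternatives covered reference, Ct ceiling, filter, shared values, plate rows and samples left out.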

Additional observations from a re-analysis of the deposited data

How the results depend on the processing

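Adjusted p values of the 5 members ran from 0.215 to 1 over 23 alternatives, with 0 of 115 under 0.05. The number of assays past the threshold was 1 rather than 0 with quantile normalization, a Ct ceiling of 32 or 28, a Ct of 40 as a measurement, the first card alone or plate row G left out, and 0 to 1 with 1 sample left out. Without normalization the median of the members was -0.51, with miR-23b at -0.60, miR-24 at -0.51 and miR-27a at -0.51. These were -0.41, -0.32 and -0.32 relative to the 5 control RNAs, and -0.21, -0.13 and -0.12 with a Ct of 40 as a measurement. They were -0.12, -0.028 and -0.026 with the plate row mean as reference, and -0.36, -0.27 and -0.27 with the plate row median. In each of these settings miR-23b, miR-24 and miR-27a moved by the same amount, and why the references differ was not tested. With 1 sample left out, miR-23b ran from -0.056 to 0.29, miR-27a from -0.062 to 0.40 and the Ct change of miR-23a from -1.09 to 0.50 cycles. Within-sample differences then ran from -0.27 to 0.12 for miR-24 minus miR-23b, -0.22 to 0.11 for miR-27a minus miR-23b, -0.26 to 0.23 for miR-27a minus miR-24 and -1.52 to 0.084 for miR-23a minus miR-24, while the other 6 pairs kept their sign. Same-numbered samples did not deviate together (r of -0.34, -0.23 and -0.18 over 282 assays). With the replicate number as a block, 0 of 301 first-card assays passed and miR-27b minus miR-27a was at 0.60 (exact permutation p = 0.25, the smallest 3 pairs allow). The number of samples limits the precision.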
